A study of Homo sapiens with 96 samples.

Results

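The exposure described here is chlorpyrifos at the concentration labelled IC20/100, set against unexposed cultures. Its members were chosen by their labels: 8 libraries of day 10 neuron and astrocyte co-cultures given chlorpyrifos IC20/100 and 8 libraries of day 10 control co-cultures, 16 of 96 libraries in the series. All cultures were grown from neural progenitors derived from H9 embryonic stem cells, an established human line, in a differentiation medium with glial and brain-derived neurotrophic factors and dibutyryl cyclic AMP. The other 80 libraries are progenitors and co-cultures exposed to chlorpyrifos IC5 or to acrylamide, fluoxetine, methyl mercury or valproic acid at IC5 or IC20/100.

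IC5 and IC20/100 are the labels' names for the concentrations used. The sources used here do not give how they were set, their molar values or how long the cells were exposed. Chlorpyrifos, fluoxetine and methyl mercury were dissolved in dimethyl sulfoxide (DMSO), at 0.25% of the medium, whereas medium alone carried acrylamide and valproic acid. Whether the control cultures held DMSO is likewise not given, so against the control group the compound and its solvent cannot be told apart. Within a group, the 8 libraries are technical replicates and come from 1 experiment, and every p-value below measures only the spread between such replicates.

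Chlorpyrifos is an organophosphate insecticide. Its oxygen analog phosphorylates serine esterases, above all acetylcholinesterase, the enzyme that ends cholinergic transmission. Cells also carry general stress programmes that many chemicals move. In the integrated stress response, phosphorylation of the translation factor eIF2 slows protein synthesis and favours translation of the transcription factor ATF4. ATF4 and its partners of the C/EBP family then raise genes for amino acid synthesis, uptake and transfer RNA charging. The tumour suppressor p53 raises genes that halt the cell cycle or promote cell death after damage. In cultures of young neurons and progenitors, these programmes run beside the transcription factors that drive neurogenesis.

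Polyadenylated RNA was sequenced with a stranded kit, and depth was 16.9 to 26.9 M reads in the control libraries and 14.9 to 22.8 M in the exposed ones. Values are the deposited normalised read counts. Neuron markers were abundant, with a summed value of 104957 to 111987 in controls and 102706 to 108660 in exposed libraries over 12 genes. Astrocyte markers were uneven: GFAP, the astrocyte intermediate filament, lay between 8.37 and 48.6 in controls with a median of 23.1, and AQP4, GJB6, AGT and HEPACAM averaged under 10 in both groups. The 12 microglial markers together summed to at most 38.3 in any control and 35.6 in any exposed library. The spread between libraries was estimated over all 88 day 10 libraries. One of these, methyl mercury IC20/100 replicate 8, stood apart, with 10.3% of its reads in its 20 most abundant genes against a median of 7.84%, and list counts without it are given where they moved by over 1.5 times and at least 2 genes.

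Chlorpyrifos IC20/100 was accompanied by lower transcripts of the integrated stress response, of amino acid synthesis and transfer RNA charging and of p53 targets, and by higher transcripts of DNA replication. Of 20136 genes tested, 2836 (14.1%) differed from control at an adjusted p under 0.05 (limma), 1422 higher (7.06%) and 1414 lower (7.02%). Without methyl mercury IC20/100 replicate 8 the count was 3537 and held all 2836. Most differences were small, with a median log2 fold change of 0.28 among the higher and -0.39 among the lower genes. By at least 1.5-fold, 559 genes were called (2.78%), 186 higher (0.924%) and 373 lower (1.85%), and without that library 195 and 387. Of the 2836, 2210 had the same sign in each of the 6 sequencing runs. These runs hold the same 16 libraries that gave the differences, so this count is not separate support. The share over all genes is not reported here. The 8 exposed and 8 control values of a gene did not overlap for 674 genes (3.35%), 278 higher (1.38%) and 396 lower (1.97%). The median log2 fold change over all genes tested was -0.00013.

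**Figure D1:**
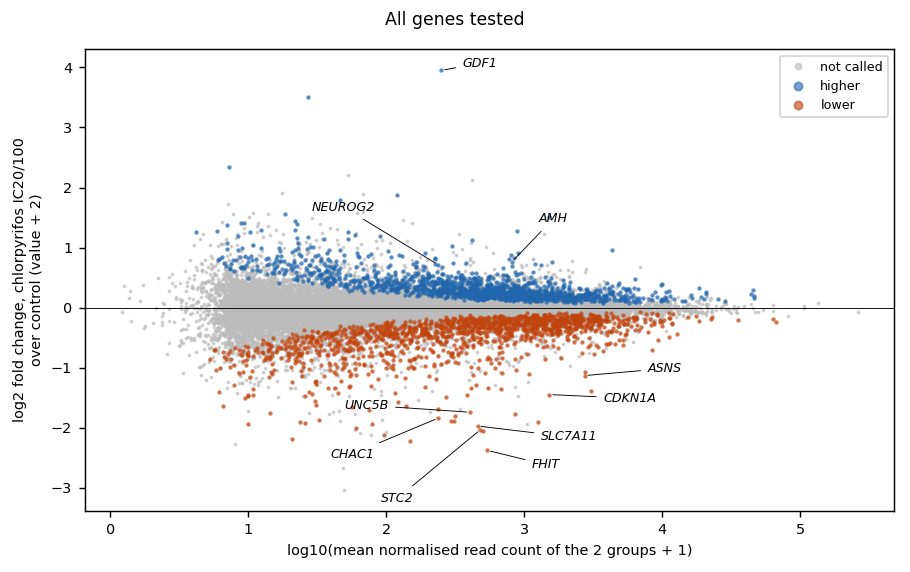
Log2 fold change of each of the 20136 genes tested (vertical axis, chlorpyrifos IC20/100 over control on value + 2) against the log10 mean normalised read count + 1 of both groups (horizontal axis), coloured by call. Most called genes lie within 1 log2 unit of 0, and the named falls of CHAC1, STC2, SLC7A11, UNC5B, CDKN1A and ASNS lie among moderately and highly expressed genes.

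ACHE, which encodes acetylcholinesterase (ENSG00000087085.15, chromosome 7, 100889994 to 100896974, GRCh38), fell. Its normalised read count was 157 to 207 in the control libraries (median 180) and 89.3 to 137 in the exposed ones (median 121). All 8 exposed libraries lay below all 8 controls, with a log2 fold change of -0.58 ± 0.12 (SE; adjusted p = 0.000207). In RNA from whole cultures, fewer cells of a type and less RNA per cell cannot be told apart, here and below. BCHE, the gene of butyrylcholinesterase, had a median of 529 in controls and 472 in exposed libraries, and the groups overlapped (-0.10 ± 0.08, adjusted p = 0.501). PNPLA6, the neuropathy target esterase that organophosphates can modify, had 718 ± 145 (SD, n = 8) in controls and 815 ± 146 in exposed libraries (adjusted p = 0.363). Of 19 tested serine hydrolases known or likely to react with organophosphates, 2 rose (10.5%), 1 fell (5.26%) and 16 did not pass, near the 7.06% and 7.02% of all genes tested. DAGLA and LYPLA2, a diacylglycerol lipase and a protein depalmitoylase, rose by 0.13 and 0.17 on the log2 scale, and each of these 2 calls was lost without any 1 of 8 of the 16 libraries, with an adjusted p of up to 0.0854 and 0.086 (limma).

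Subunits of a nicotinic receptor rose. CHRNA3, the alpha subunit of the ganglionic receptor, ran from 123 to 224 in controls (median 185) and from 182 to 327 in exposed libraries (median 245), with overlapping ranges (0.52 ± 0.14, adjusted p = 0.00432). Its partner subunit CHRNB4 rose by 0.34 ± 0.09 on the log2 scale and PRIMA1, the membrane anchor of acetylcholinesterase, by 0.23 ± 0.06, a call lost with the 16 libraries alone (adjusted p = 0.0539, limma). The muscarinic receptor gene CHRM4 fell from a mean of 6.25 to 3.31, with overlapping groups and an adjusted p of 0.0449 that ranged up to 0.133 when 1 library was left out. CHAT, the acetylcholine-synthesising enzyme, had a median of 10.9 in controls and 7.60 in exposed libraries and did not pass (adjusted p = 0.707). In all, 3 of 17 tested cholinergic genes rose (17.6%) and 1 fell (5.88%), beside 7.06% and 7.02% of all genes tested.

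Of 21 tested genes of organophosphate and xenobiotic metabolism 2 rose (9.52%) and 1 fell (4.76%), again near the share over all genes, and 4 rose without methyl mercury IC20/100 replicate 8. GSTM2, a glutathione transferase, rose from 894 to 1037 in controls (lowest to highest) to between 1066 and 1164 in exposed libraries, without overlap (0.21 ± 0.05, adjusted p = 0.0013), and its annotation overlaps GSTM4 and GSTM1 on the same strand. PON2, a paraoxonase, rose by 0.12 ± 0.03 on the log2 scale. CYP26B1, which degrades retinoic acid, fell from a median of 854 to 444 without overlap (-0.93 ± 0.15, adjusted p = 1.74e-06). The other 18, among them the aryl hydrocarbon receptor AHR and CYP1B1, did not pass.

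The integrated stress response genes fell together. CHAC1, a glutathione-degrading enzyme induced by ATF4 (ENSG00000128965.13, chromosome 15, 40952962 to 40956519), had values of 294 to 461 in controls (median 371) and 80.4 to 142 in exposed libraries (median 95.5). The groups did not overlap, and the log2 fold change was -1.84 ± 0.11 (adjusted p = 7.18e-23). DDIT3, the stress transcription factor CHOP, ran from 384 to 700 in controls (median 591) and from 178 to 221 in exposed libraries (median 208), again without overlap (-1.45 ± 0.11, adjusted p = 8.84e-18). ATF4 itself fell, from 5050 to 5736 in controls to 4078 to 4644 in exposed libraries, also without overlap (-0.31 ± 0.06, adjusted p = 2.34e-05). Transcript levels do not report translation of ATF4, which is its main point of control.

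Of 23 tested genes of the integrated stress response core and ATF4 targets, 17 fell (73.9%, beside 7.02% of all genes tested) and 6 did not pass. Their median log2 fold change was -0.76. STC2, a secreted stress glycoprotein, had a log2 fold change of -2.03 ± 0.26, the transcription factor CEBPB -1.94 ± 0.13, the pseudokinase TRIB3 -1.81 ± 0.13 and the transcription factor ATF5 -1.77 ± 0.10. None of these 4 overlapped between groups. GDF15, a stress hormone, fell by 2.22 on the log2 scale (SE 0.48), but its groups overlapped: exposed replicate 7 had 281, whereas the other exposed libraries lay at or below 38.0 and the controls between 87.5 and 603. SESN2 fell by 1.10 (SE 0.06) and EIF4EBP1, a repressor of translation initiation, by 0.76 (SE 0.09). Members of the list that did not pass were INHBE, NUPR1, VLDLR, TRIB1, KLHL24 and NDRG1. Of 15 tested kinases, phosphatase subunits and eIF2B subunits of the pathway, 2 fell (13.3%). PPP1R15B fell by 0.29 and EIF2B2 by 0.23 on the log2 scale. The call of EIF2B2 was lost with a replicate block in place of run (adjusted p = 0.0728, limma). The 4 eIF2 kinase genes EIF2AK1 to EIF2AK4 had log2 fold changes between 0.00 and 0.15 that did not pass.

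Genes that make serine, one-carbon units and asparagine fell with them. ASNS, asparagine synthetase (ENSG00000070669.17, chromosome 7, 97852118 to 97872542), had 3092 to 4228 in controls (median 3778) and 1539 to 1949 in exposed libraries (median 1698). The log2 fold change was -1.13 ± 0.07 (adjusted p = 3.33e-22), and no exposed library reached the lowest control. PSAT1, a serine synthesis aminotransferase, had the smallest p of all genes (-0.77 ± 0.04, adjusted p = 4.15e-25), at 3348 to 4326 in controls and 2222 to 2565 in exposed libraries. The mitochondrial folate enzymes ALDH1L2, MTHFD2 and SHMT2 each fell by about 1 log2 unit (-1.09, -1.09 and -1.08). In total 14 of 23 tested genes of the list fell (60.9%) and 3 rose (13.0%), beside 7.02% and 7.06% of all genes tested. The median of the list was -0.42. With the 16 libraries alone 0 of the list rose, and without exposed replicate 7 or control replicate 3, 1 did. Among those that rose were TYMS (0.23) and PYCR3 (0.36). TYMS serves thymidylate synthesis for DNA replication, and its adjusted p ranged up to 0.0659 (limma) when 1 library was left out. PCK2, the mitochondrial phosphoenolpyruvate carboxykinase, fell by 1.89 on the log2 scale (SE 0.17).

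Amino acid transporters showed the same direction in part. SLC7A11, the cystine importer (ENSG00000151012.13, chromosome 4, 138164097 to 138242349), had 440 to 851 in controls (median 758) and 150 to 225 in exposed libraries (median 190), a log2 fold change of -1.97 ± 0.13 without overlap. The large neutral amino acid carrier SLC7A5 fell by 1.39 (SE 0.11), its heavy chain SLC3A2 by 0.60 (SE 0.08), the glycine transporter SLC6A9 by 0.92 (SE 0.13) and the cationic carrier SLC7A3 by 0.74 (SE 0.05). Of 21 tested transporters 8 fell (38.1%), 1 rose (4.76%) and 12 did not pass, beside 7.02% lower and 7.06% higher of all genes tested. SLC43A1, the 1 that rose, averaged 10.3 in controls and 20.3 in exposed libraries, with an adjusted p of up to 0.0563 (limma) without exposed replicate 1 or control replicate 2.

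The enzymes that charge transfer RNA were counted by compartment. Of 20 tested cytosolic aminoacyl-tRNA synthetases 11 fell (55%) and 1 rose (5%). Of 17 tested mitochondrial ones 1 fell (5.88%) and 4 rose (23.5%), or 2 rose with the 16 libraries alone. Over all genes tested 7.02% fell and 7.06% rose. The difference between the 2 lists was not tested. AARS1, the cytosolic alanyl enzyme, had 4006 to 5231 in controls and 2667 to 2992 in exposed libraries (-0.72 ± 0.06, adjusted p = 5.97e-17), with no overlap. CARS1, YARS1 and IARS1 fell by 0.64, 0.61 and 0.61 on the log2 scale, IARS1 with overlapping groups. CARS2, the mitochondrial cysteinyl enzyme, rose from a mean of 736 to 942 (0.38 ± 0.08, adjusted p = 9.75e-05). FARSB, a subunit of the cytosolic phenylalanyl enzyme, was the cytosolic gene that rose (0.16 ± 0.04).

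Some of these promoters, a minority in each whole list, hold the composite C/EBP-ATF element, at which ATF4 is known to bind with a C/EBP partner. It was searched as TGATGNAA on both strands, over 250 bases before to 50 after each RefSeq start site (GRCh38.p14). The element was found for 2.95% of 11979 tested protein-coding genes with a promoter sequence. Among genes that fell the share was 6.64% (60 of 904), among genes that rose 1.67% (16 of 958) and among those not called 2.75%. Of the genes that fell with a promoter sequence, it was found for 4 of 16 in the stress response list, 4 of 9 in the serine and one-carbon list, 3 of 5 transporters and 7 of 9 cytosolic synthetases. Over the whole lists, whatever the call, it was found for 5 of 19, 4 of 14, 6 of 15 and 7 of 16. A match is a description of letters, not of binding. The windows below show it, in capitals, in 1 stress gene, 1 C/EBP factor, 3 metabolic enzymes and 1 synthetase that fell without overlap between groups.
CHAC1: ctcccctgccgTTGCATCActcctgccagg
CEBPG: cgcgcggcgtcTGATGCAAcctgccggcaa
ASNS: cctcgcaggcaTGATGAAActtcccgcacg
MTHFD1L: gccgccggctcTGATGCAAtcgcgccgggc
BCAT1: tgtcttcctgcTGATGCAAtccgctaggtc
AARS1: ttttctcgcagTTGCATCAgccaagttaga
Each window is read along its gene's strand and lies wholly before the RefSeq start site used for the search. Some GENCODE 29 genes start farther upstream, so the CHAC1, ASNS, MTHFD1L and BCAT1 windows lie inside those gene spans and overlap an annotated exon, and the CEBPG window lies inside the span outside exons. The CHAC1 window is chr15:40953251-40953280 on the plus strand, CEBPG chr19:33374060-33374089 (plus), ASNS chr7:97872458-97872487 (minus), MTHFD1L chr6:150866346-150866375 (plus), BCAT1 chr12:24949131-24949160 (minus) and AARS1 chr16:70289675-70289704 (minus). In CHAC1 and AARS1 the element is on the opposite strand, so the capitals show its reverse complement. CEBPG, a C/EBP partner, fell by 0.43 (SE 0.03), MTHFD1L by 0.84 (SE 0.13) and BCAT1, a branched-chain aminotransferase, by 0.36 (SE 0.05) on the log2 scale.

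Among chaperones of the endoplasmic reticulum the number of falls rested on 1 library. HSPA5, the main chaperone of that compartment, had 5645 to 6232 in controls and 5379 to 5702 in exposed libraries (-0.09 ± 0.04, adjusted p = 0.12). HERPUD1, a degradation factor with the same C/EBP-ATF element, fell by 0.85 (SE 0.13), and the transcription factor XBP1 by 0.50 (SE 0.06), both without overlap. PDIA3, a disulfide isomerase, rose by 0.37 (SE 0.06). In this list of 27, 4 fell (14.8%), 1 rose (3.70%) and 22 did not pass, and the median was 0.00. Over all genes tested 7.02% fell and 7.06% rose. Without methyl mercury IC20/100 replicate 8, 8 of the list fell, and no other library left out gave under 4.

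**Figure D2:**
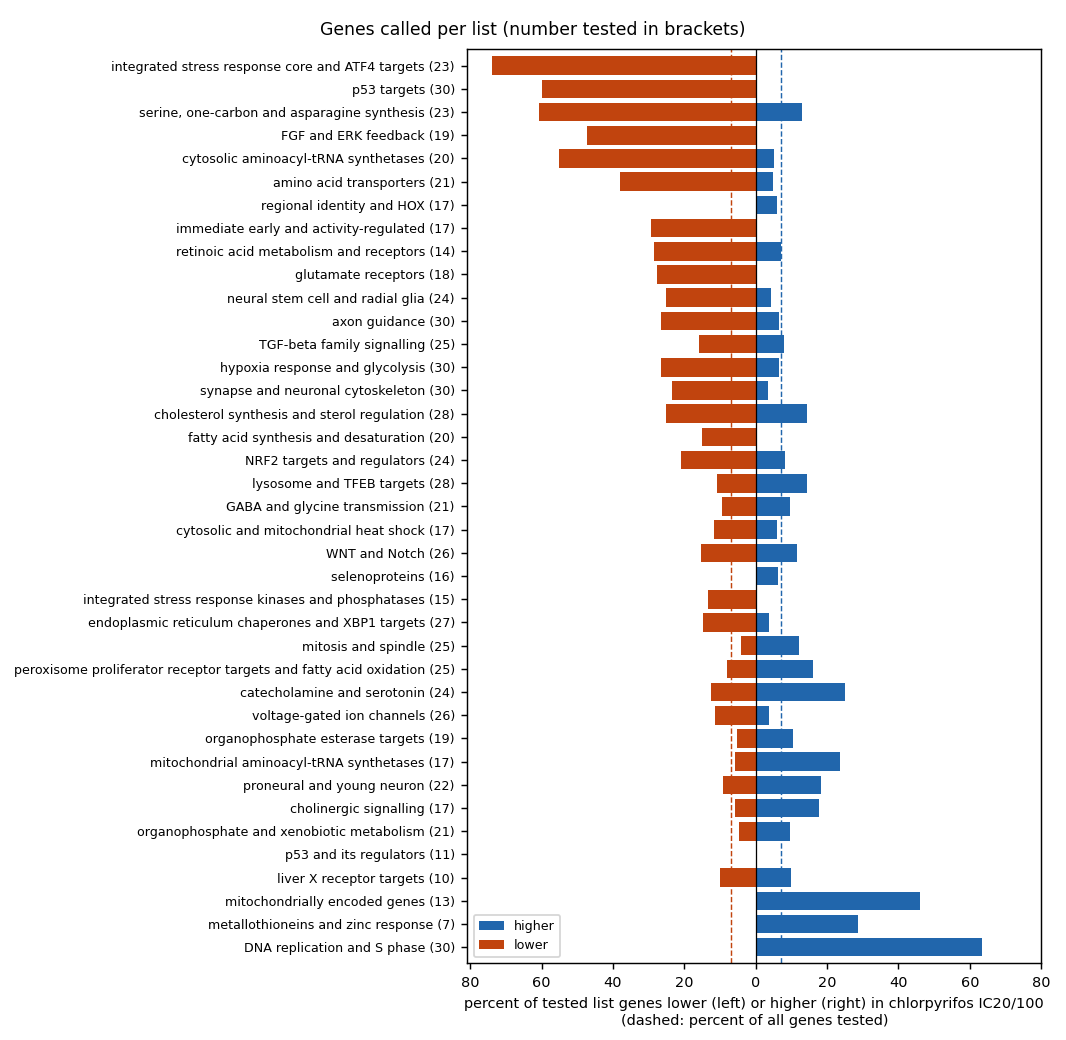
Percent of the tested genes of 39 gene lists that were called lower (to the left) or higher (to the right) in chlorpyrifos IC20/100, ordered by the median log2 fold change, with dashed lines at the percent of all genes tested. Stress response, p53, serine and synthetase lists extend farthest left, and DNA replication farthest right.

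Targets of p53 formed the other group of falls. CDKN1A, the cell cycle inhibitor p21 (ENSG00000124762.13, chromosome 6, 36676460 to 36687339), ran from 1648 to 2950 in controls (median 2206) and from 669 to 943 in exposed libraries (median 817). The groups did not overlap (-1.45 ± 0.13, adjusted p = 4.65e-15). PMAIP1, the cell death gene NOXA, fell from a median of 280 to 105, also without overlap (-1.32 ± 0.10). Of 30 tested p53 targets 18 fell (60%, beside 7.02% of all genes tested) and 12 did not pass, with a median of -0.45. SPATA18 and the death receptor FAS fell by 1.11 and 0.94 with overlapping groups, and BBC3, which the stress response list also holds, by 0.58. MDM2, the ubiquitin ligase that p53 induces, fell by 0.38 (SE 0.13, adjusted p = 0.0429), a call that ended without any 1 of 11 of the libraries (adjusted p up to 0.101, limma).

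Other stress programmes held fewer called genes. Among 24 tested NRF2 genes 5 fell (20.8%) and 2 rose (8.33%), beside 7.02% and 7.06% of all genes tested. Without exposed replicate 3, 2 fell, and with the 16 libraries alone 0 rose. HMOX1, heme oxygenase, fell from a median of 62.0 to 32.8 with overlap (-0.68 ± 0.17). SRXN1, sulfiredoxin, fell by 0.50 (SE 0.16) without overlap, with an adjusted p of up to 0.0551 (limma) without exposed replicate 3 or 8. The metallothionein genes MT2A and MT1X rose at low levels, MT2A from between 6.51 and 20.4 in controls to between 23.6 and 38.4 in exposed libraries (1.16 ± 0.19, adjusted p = 2.42e-06). MT1X had a median of 6.69 in controls and 15.8 in exposed libraries. Metallothioneins bind zinc and other metals. Of 7 tested genes of that list 2 rose (28.6%, beside 7.06% of all genes tested) and the other 5 did not pass. Of 17 heat shock genes 2 fell (11.8%) and 1 rose (5.88%), near the 7.02% and 7.06% of all genes tested. Without methyl mercury IC20/100 replicate 8, 3 rose. HSPA9, the mitochondrial HSP70, fell by 0.60 (SE 0.18), a call lost without exposed replicate 3 (adjusted p = 0.053, limma).

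DNA replication genes rose. PCNA, the sliding clamp of DNA polymerases, ran from 1106 to 1484 in controls (median 1240) and from 1578 to 1865 in exposed libraries (median 1683), without overlap (0.44 ± 0.07, adjusted p = 1.21e-06). MCM3, a subunit of the replicative helicase, ran from 1128 to 1515 and from 1539 to 1834 (0.42 ± 0.06). Of 30 tested genes of DNA replication and S phase 19 rose (63.3%, beside 7.06% of all genes tested) and 11 did not pass. Their median was 0.38. CCNE2, a cyclin of S phase entry, rose by 0.73 (SE 0.19), the flap endonuclease FEN1 by 0.56 (SE 0.09), GINS1 by 0.51 (SE 0.09) and GINS2 by 0.49 (SE 0.11), with overlapping groups. Of 25 tested genes of mitosis and the spindle 3 rose (12%) and 1 fell (4%), beside 7.06% and 7.02% of all genes tested. The 1 that fell was PLK1, a mitotic kinase (-0.28 ± 0.06), and the median of the list was 0.01. Without methyl mercury IC20/100 replicate 8, 3 fell, and without exposed replicate 1 or 4 or control replicate 1, 1 rose. ASPM and KIF11, which rose by 0.21 and 0.20, had an adjusted p of up to 0.0897 and 0.0718 (limma) when 1 library was left out. MKI67, a marker of cycling cells, had 2924 to 3656 in controls and 3505 to 4389 in exposed libraries (0.29 ± 0.07, adjusted p = 0.000741). CDKN2B, another cell cycle inhibitor, rose from a median of 28.4 to 66.8 with slightly overlapping groups (1.26 ± 0.20).

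The E2F factors, which drive S phase genes, are known to bind a short element searched here as TTTCCCGC or TTTGGCGC on both strands, a search added after the data were seen. It was found for 4.27% of tested protein-coding genes with a promoter sequence, for 6.68% of those that rose and 2.88% of those that fell. In the DNA replication list 15 of 26 promoters held it, and 10 of 17 of the members that rose. The windows of 3 members that rose show it in capitals, as its reverse complement in PCNA and GINS2.
MCM3: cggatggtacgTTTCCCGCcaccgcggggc
PCNA: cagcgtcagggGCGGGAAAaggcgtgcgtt
GINS2: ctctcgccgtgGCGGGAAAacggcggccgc
These lie at chr6:52284898-52284927, chr20:5126663-5126692 and chr16:85688967-85688996 of GRCh38.p14, all on the minus strand (RefSeq), and the GINS2 window overlaps an exon of the longer GENCODE gene.

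**Figure D3:**
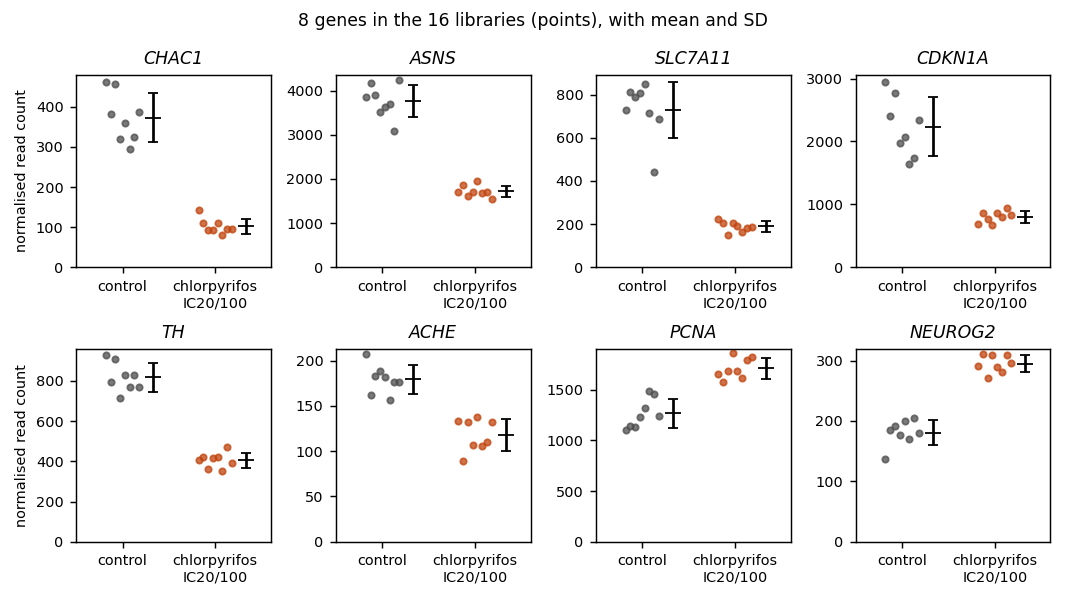
Normalised read counts of 8 genes in the 8 control and 8 chlorpyrifos IC20/100 libraries (points, spread sideways for visibility), with the mean and SD beside them. For CHAC1, ASNS, SLC7A11, CDKN1A, TH and ACHE every exposed library lies below every control, and for PCNA and NEUROG2 above.

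Among metabolic genes, CPT1A, the entry enzyme of mitochondrial fatty acid oxidation (chromosome 11, 68754620 to 68844410), fell from 231 to 388 in controls (median 297) to 125 to 164 in exposed libraries (median 151), without overlap (-0.97 ± 0.13, adjusted p = 1.71e-08). ACADVL, an acyl-CoA dehydrogenase of the same pathway, rose by 0.36 (SE 0.07), and 19 of its list of 25 did not pass. Among 28 sterol genes 7 fell (25%) and 4 rose (14.3%), beside 7.02% and 7.06% of all genes tested. The falls numbered 3 without exposed replicate 6 or without the low-value filter. They numbered 4 without exposed replicate 3, control replicate 3 or the run term. With the 16 libraries alone 2 sterol genes rose. FDFT1, squalene synthase, fell by 0.28 (SE 0.04) and MVD, a mevalonate decarboxylase, rose by 0.51 (SE 0.12). In the hypoxia and glycolysis list of 30, 8 fell (26.7%) and 2 rose (6.67%), beside the same shares of all genes. In that list 4 rose with a replicate block beside run. The count was also 4 when control replicate 7 or the methyl mercury library that stood apart was left out. VEGFA, the vascular growth factor, fell from a median of 5814 to 3971 (-0.54 ± 0.04), and ENO2, the neuronal enolase, by 0.42 (SE 0.07), while LDHA and GAPDH rose by 0.31 and 0.23. The call of LDHA was lost without the run term (adjusted p = 0.154, limma) and with a replicate block in place of run (0.0666).

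Transcripts encoded by the mitochondrial genome took a larger share of reads. The share of reads from the 13 mitochondrially encoded protein genes was 1.95% to 2.19% in controls (median 2.07%) and 2.15% to 2.40% in exposed libraries (median 2.28%). It was 0.212 percentage points higher in the exposed group (exact permutation test, two-sided p = 0.000311). The difference was positive within each of the 6 runs, from 0.0588 to 0.297 percentage points. An exact permutation within runs, over 324 arrangements, gave p = 0.00309. Of the 13 genes 6 rose (46.2%, beside 7.06% of all genes tested) and the other 7 did not pass. The rises were led by MT-ND1 (0.33 ± 0.06) and MT-CO3 (0.29 ± 0.06).

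Among genes of transmitter identity, TH, tyrosine hydroxylase, the rate-limiting enzyme of catecholamine synthesis (ENSG00000180176.14, chromosome 11, 2163929 to 2171877), fell. It ran from 713 to 931 in controls (median 812) and from 354 to 472 in exposed libraries (median 411), without overlap. The mean was 818 ± 73.2 (SD) in controls and 406 ± 36.7 in exposed libraries (adjusted p = 9.39e-15). Later steps of noradrenaline handling moved the other way at low levels. DBH, which makes noradrenaline, rose from a median of 9.86 to 30.9 and SLC6A2, the noradrenaline transporter, from 9.16 to 25.3. In both genes 1 control library lay inside the exposed range. ADRA2A, a noradrenaline receptor, rose from 49.5 to 72.3 in controls to 81.1 to 115 in exposed libraries, without overlap (0.63 ± 0.09). Of 24 tested catecholamine and serotonin genes 6 rose (25%) and 3 fell (12.5%), beside 7.06% and 7.02% of all genes tested. With the stricter filter of 50, 3 rose. Without exposed replicate 5 or 8 or control replicate 1 or 2, 1 fell.

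Glutamate receptor and synaptic genes fell more often than they rose. Of 18 tested glutamate receptor genes 5 fell (27.8%) and 13 did not pass. Of 30 synaptic and cytoskeletal genes 7 fell (23.3%) and 1 rose (3.33%), beside 7.02% and 7.06% of all genes tested. GRIN2D, an NMDA receptor subunit, fell from a median of 1026 to 872 without overlap (-0.28 ± 0.06). NEFL, the neurofilament light chain, had 2433 to 2609 in controls and 1768 to 2034 in exposed libraries (-0.40 ± 0.03, adjusted p = 1.96e-16), and DLG4, the postsynaptic scaffold PSD-95, fell by 0.34 (SE 0.05). GRIK4, a kainate receptor subunit, was listed with a fall of 2.06 on the log2 scale, but 4 controls lay at 1229 to 1724 and 4 at 135 to 272, beside 103 to 174 in the exposed libraries. MAP2 and DCX, cytoskeletal proteins of neurons, did not pass (-0.06 ± 0.05 and -0.03 ± 0.06). Among 26 ion channel genes 3 fell (11.5%) and 1 rose (3.85%), near the 7.02% and 7.06% of all genes tested. CACNA1G, a T-type calcium channel, fell from a median of 155 to 94.1.

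Axon guidance receptors included one of the larger falls. UNC5B, a netrin receptor that p53 is known to induce (chromosome 10, 71212570 to 71302864), ran from 447 to 887 in controls (median 635) and from 156 to 223 in exposed libraries (median 183). The log2 fold change was -1.74 ± 0.12 (adjusted p = 1.21e-19), without overlap. Its paralog UNC5A fell by 0.57 (SE 0.13) and the semaphorin receptor PLXNA2 by 0.49 (SE 0.07), and EFNB2 and SEMA3A rose by 0.24 and 0.42. Of 30 genes 8 fell (26.7%) and 2 rose (6.67%), beside 7.02% and 7.06% of all genes tested.

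NEUROG2, a proneural transcription factor of early neurogenesis, rose. The gene (ENSG00000178403.4, chromosome 4, 112513516 to 112516172) had 138 to 205 in controls (median 183) and 272 to 311 in exposed libraries (median 294), without overlap (0.71 ± 0.07, adjusted p = 5.44e-14). NEUROD4 and NEUROG1 rose by 0.45 each, NEUROG1 with an adjusted p of 0.073 in the 16 libraries alone (limma), and HES6, a factor that promotes neuronal differentiation and stands in the WNT and Notch list, by 0.48 (SE 0.08). NHLH1, a factor of newly formed neurons, fell from a median of 2333 to 1756 without overlap (-0.39 ± 0.03). Of 22 tested proneural and young neuron genes 4 rose (18.2%), 2 fell (9.09%) and 16 did not pass, beside 7.06% and 7.02% of all genes tested.

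Some progenitor and radial glia genes fell. FABP7, which binds fatty acids in radial glia, had 3226 to 3474 in controls and 1864 to 2087 in exposed libraries (-0.76 ± 0.07, adjusted p = 4.31e-15). LIN28A, which binds RNA in early progenitors, fell from a median of 187 to 100 (-0.87 ± 0.08), and PAX6, a forebrain progenitor factor, by 0.46 (SE 0.09) with overlap. SOX2 fell by 0.20 (SE 0.03) and NES rose by 0.16 (SE 0.04), both with overlapping groups. The call of SOX2 was lost without the run term (adjusted p = 0.0873, limma) and with a replicate block in place of run (0.0718). In the list of 24, 6 fell (25%) and 1 rose (4.17%), beside 7.02% and 7.06% of all genes tested. Without methyl mercury IC20/100 replicate 8, 9 fell and 3 rose. Of 14 retinoic acid genes 4 fell (28.6%) and 1 rose (7.14%), beside the same shares of all genes. CRABP2, which carries retinoic acid to the nucleus, had 501 to 691 in controls and 241 to 321 in exposed libraries (-1.11 ± 0.09).

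Growth factor feedback genes formed another group of falls. Of 19 tested genes that report FGF and ERK signalling 9 fell (47.4%, beside 7.02% of all genes tested) and 10 did not pass. Their median was -0.31. SPRY4, an inhibitor of receptor tyrosine kinase signalling, ran from 233 to 386 in controls and from 129 to 201 in exposed libraries (-0.94 ± 0.12), without overlap. ETV4 and DUSP6 fell by 0.87 and 0.60 with overlap. ETV5 was called lower (-1.01 ± 0.30), but its call was lost without control replicate 3 or 4 (adjusted p up to 0.0906, limma). In the TGF-beta family BMP7 fell by 1.01 (SE 0.30) and NOG, the BMP antagonist noggin, by 0.80 (SE 0.15). AMH, anti-Mullerian hormone, rose from 534 to 704 in controls to 886 to 1083 in exposed libraries, without overlap (0.76 ± 0.08).

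Marker sums of other cell types moved for some lists. A sum rests mostly on its most abundant members. The 12 oligodendrocyte lineage markers summed to 11554 to 12786 in controls and 8626 to 9591 in exposed libraries, without overlap. Of 9 tested members 3 fell (33.3%, beside 7.02% of all genes tested). Of the 12, MAG, a myelin glycoprotein, was at 0 in both groups, and MOG and NKX2-2 averaged under 10 in both. SOX10, the lineage factor shared with neural crest, fell from a median of 12.7 to 4.56, which is little beside the fall of the sum. The members that carry the sum are not reported here. Markers of pluripotent cells summed to 2242 to 2603 and 1642 to 1896, without overlap, and 3 of 7 tested fell (42.9%). SALL4, a transcription factor, had 1533 to 1850 in controls and 935 to 1204 in exposed libraries (-0.56 ± 0.09), whereas the defining factors POU5F1 (-0.08 ± 0.15) and NANOG (0.12 ± 0.18) did not pass. Mesenchyme and pericyte markers summed to 3978 to 4986 in controls and 3403 to 4009 in exposed libraries, with overlap, and ACTA2, smooth muscle actin, fell by 0.86 (SE 0.11). Astrocyte markers summed to 22178 to 24250 and 20091 to 22384, also with overlap. Among them SPARCL1 fell by 0.81 (SE 0.14), while GFAP (-0.06 ± 0.46) and S100B (0.02 ± 0.16) did not pass. The part of these cells in the gene groups above was not tested.

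The largest changes by size were often uneven between libraries. Of the 15 largest rises among protein-coding genes, LTB4R2, a leukotriene receptor gene that overlaps LTB4R and NOP9, and HELT, a transcription factor of midbrain inhibitory neurons, were those whose groups did not overlap. LTB4R2 ran from 40.6 to 65.1 in controls and from 74.9 to 134 in exposed libraries, and HELT from 35.1 to 60.3 and from 79.1 to 109.5. GDF1, with the largest rise, was at 0 in 3 controls and at 68.0 to 393 in the other 5, beside 172 to 486 in the exposed libraries, and it shares its transcript region with CERS1. FHIT, a diadenosine hydrolase with the largest fall, had 3 controls at 132 to 135 and 5 at 564 to 2021, while all exposed libraries lay at or below 136. The call of FHIT ended without control replicate 1 or 6 (adjusted p up to 0.0556, limma), and that of SLC4A11, a membrane transporter, without control replicate 7 (0.0609). RPS10-NUDT3, a read-through of RPS10 and NUDT3, cannot be separated from these genes with certainty in read counting, and its call was lost with the 16 libraries alone (adjusted p = 0.216, limma). Of the 15 largest falls 9 did not overlap: STC2, SLC7A11, CEBPB, PCK2, CHAC1, TRIB3, ATF5, UNC5B and INPP5D. Over all genes tested the groups did not overlap for 1.97% as falls and 1.38% as rises. Both sets of 15 were called genes picked by size from these same values, which favours separated groups. The difference between rises and falls was not tested.

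To see how far these differences are particular to chlorpyrifos IC20/100, it was compared directly with other exposed groups in the same fit. Against fluoxetine IC20/100, also given in DMSO, 5 genes differed (0.0248%), all higher with chlorpyrifos, and 1308 had an unadjusted p under 0.05. They were HPDL (0.64 ± 0.14), PCSK1N (0.50 ± 0.10), FZD2, ZFP36L2 and SBK1, the last 3 by at most 0.18 on the log2 scale. Other tools called more, 19 genes in edgeR and 59 in DESeq2, and limma called 43 without methyl mercury IC20/100 replicate 8. It called 0 without chlorpyrifos IC20/100 replicate 3, 7 or 8 or fluoxetine IC20/100 replicate 1, 4 or 5. PCSK1N, a proprotein convertase inhibitor, had a mean of 881 ± 63.3 with chlorpyrifos and 644 ± 101 with fluoxetine. Against methyl mercury IC20/100, the third DMSO exposure at that level, 1 gene differed (0.00497%): WASHC3, an endosomal complex subunit, was lower by 0.33 on the log2 scale, and 2261 genes had an unadjusted p under 0.05. There edgeR called 14 and DESeq2 71, and limma 5 without chlorpyrifos replicate 2. It called 0 without methyl mercury replicate 3 or 8 or chlorpyrifos replicate 3, 4 or 7.

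Few calls do not show that these exposures act alike, so the intervals of the differences were counted. The 95% interval of the log2 difference lay within 1.5-fold either way for 73.6% of genes against fluoxetine and 72.6% against methyl mercury. It did so for 67.7% against control and 67.8% against acrylamide IC20/100, so over all genes this share differed little between references. Of the 559 genes called by at least 1.5-fold against control, 275 and 269 had such an interval, and 23 against acrylamide IC20/100. In limma 0 of the 559 differed from either exposure, with 73 and 95 at an unadjusted p under 0.05; edgeR called 1 and 2, and DESeq2 1 and 4. For CHAC1 the difference from fluoxetine was 0.12 (95% interval -0.10 to 0.35) and from methyl mercury -0.16 (-0.38 to 0.06). TH differed by -0.07 (-0.25 to 0.11) and -0.16 (-0.34 to 0.02), and ACHE by -0.11 (-0.35 to 0.13) and -0.09 (-0.33 to 0.14).

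**Figure D4:**
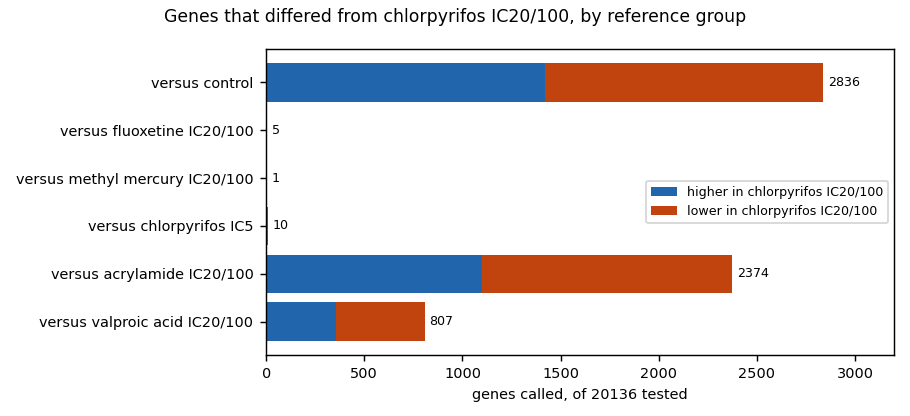
Number of genes, of 20136 tested, that differed between chlorpyrifos IC20/100 and each of 6 reference groups (bars, higher and lower parts stacked, adjusted p under 0.05). The bars reach 2836 against control, 2374 against acrylamide IC20/100 and 807 against valproic acid IC20/100. They reach 5, 1 and 10 against fluoxetine IC20/100, methyl mercury IC20/100 and chlorpyrifos IC5, all in DMSO. Fluoxetine IC5 and methyl mercury IC5, also in DMSO, were not compared.

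The exposures dissolved in medium served as further references, in comparisons added after the data were seen. Against acrylamide IC20/100 2374 genes differed (11.8%), 1099 higher (5.46%) and 1275 lower (6.33%), and against valproic acid IC20/100 807 (4.01%), 354 higher (1.76%) and 453 lower (2.25%). The 2 comparisons share the exposed libraries with the one against control. Of the 559 genes, 89 had an interval within 1.5-fold against valproic acid. CHAC1 averaged 373 ± 61.6 in controls, 373 ± 79.5 with acrylamide IC20/100 and 240 ± 45.0 with valproic acid IC20/100. It averaged 103 ± 19.0 with chlorpyrifos, 93.8 ± 12.9 with fluoxetine and 115 ± 27.5 with methyl mercury IC20/100. Solvent and compound differ together between these sets of groups and cannot be told apart here. At IC5 CHAC1 averaged 73.9 ± 9.64 with acrylamide and 66.2 ± 5.71 with valproic acid, both in medium. In DMSO at IC5 it averaged 87.9 ± 10.5 with chlorpyrifos, 69.1 ± 10.3 with fluoxetine and 182 ± 17.1 with methyl mercury.

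**Figure D5:**
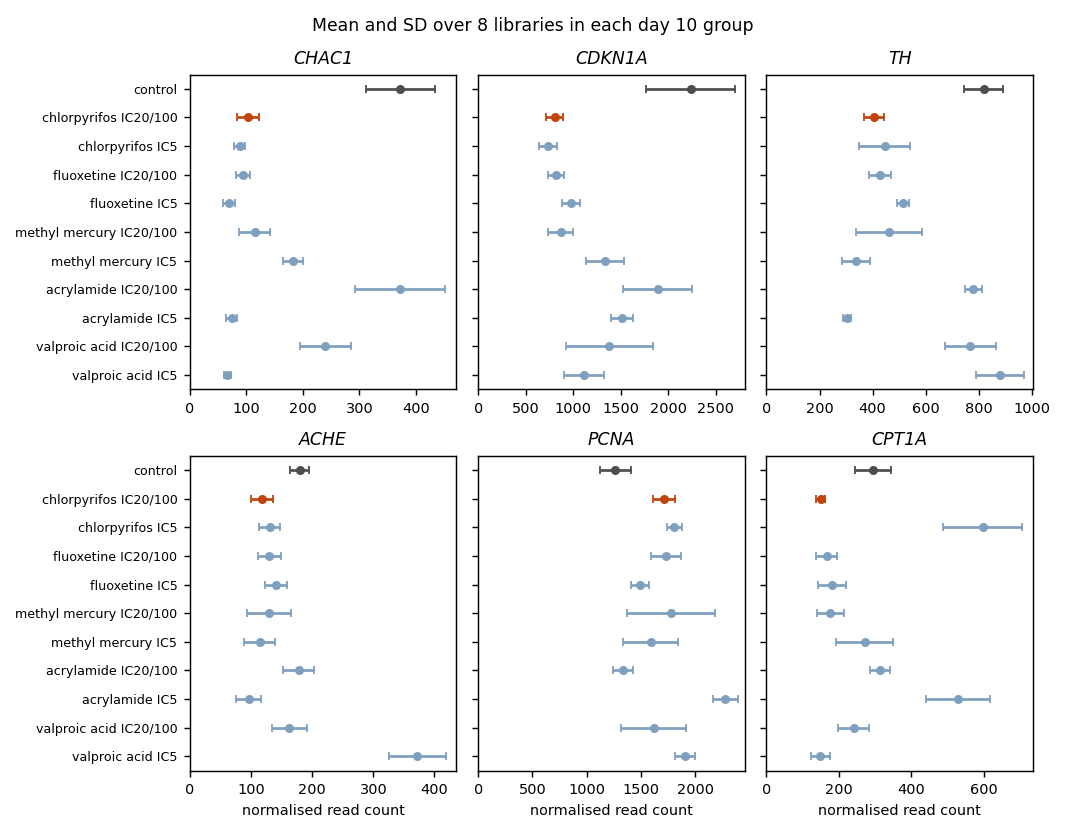
Mean and SD over 8 libraries of the normalised read counts of 6 genes (horizontal axes) in the 11 day 10 groups (vertical axis). For CHAC1, CDKN1A, TH, ACHE and PCNA chlorpyrifos IC20/100 lies near the other IC20/100 exposures in DMSO and away from control and acrylamide IC20/100. For PCNA it also lies near valproic acid IC20/100, in medium (log2 difference 0.10, interval -0.04 to 0.24). For CHAC1 acrylamide IC5 and valproic acid IC5, both in medium, lie below chlorpyrifos IC20/100, and methyl mercury IC5, in DMSO, lies above it. CPT1A has its highest mean at chlorpyrifos IC5.

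Between the concentrations of chlorpyrifos, 10 genes differed (0.0497%), 8 lower (0.0397%) and 2 higher (0.00993%) at IC20/100, with 1406 at an unadjusted p under 0.05, 16 called by edgeR and 79 by DESeq2. Without methyl mercury IC20/100 replicate 8 limma called 27. CPT1A, the fatty acid oxidation gene above, was the 1 of them that differed by at least 1.5-fold. It averaged 150 ± 11.7 at IC20/100, 295 ± 49.3 in controls and 598 ± 109 at IC5, a difference between concentrations of -1.98 ± 0.13 on the log2 scale (adjusted p = 2.76e-20). It was thus below control at IC20/100 and above it at IC5. SREBF1, a regulator of lipid synthesis, was higher at IC20/100 than at IC5 by 0.46 (95% interval 0.29 to 0.64), and ARRDC4, an arrestin-like gene, by 0.25. IGFBP5, PTN, DSCAM, MAB21L2, EFNB2, NEFL and DUSP4 were lower at IC20/100 by 0.13 to 0.29. The interval lay within 1.5-fold for 303 of the 559 genes, and for 73.3% of all genes beside the 67.7% against control. CHAC1 differed by 0.21 (-0.01 to 0.44), CDKN1A by 0.13 (-0.12 to 0.39) and ACHE by -0.12 (-0.36 to 0.12) between IC20/100 and IC5.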

How the data were processed

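The authors sequenced 8 technical replicates of each of 12 groups in 6 runs. Per the submitters' processing notes, they used bcl2fastq, FastQC 0.11.8, MultiQC 1.0, Salmon 1.3.0, DESeq2 1.30.0 and GRCh38; the sources used here name no annotation release. The deposited signal is a gene count that the authors divided by 1 size factor per library, so 100% of positive values were whole reads after rescaling (within 0.001 read), and depth was read from these.

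The test kept genes that reached 10 in 8 or more of the 88 day 10 libraries and used limma 3.58.1 (R 4.3.3) on log2(value + 2), with group and run as terms and Benjamini-Hochberg adjustment, two-sided; all adjusted p-values and ± values of a log2 fold change come from this fit, and such a fold change understates low genes. Alternatives included edgeR 4.0.16 and DESeq2 1.42.0 on recovered reads. The fit was tested on simulated data.

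The members and the 48 gene lists were chosen with earlier results of these data known. Named genes were the 15 largest rises and falls among protein-coding genes with a mean of at least 50, up to 4 called members per list by size and a set of fixed markers; other list members were named after their values were seen, and some called members are not reported here. Symbols and positions are from GENCODE 29, matched for 58171 of 58434 genes. No 2 libraries of the control or of the chlorpyrifos IC20/100 group were alike within sampling noise.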

Additional observations from a re-analysis of the deposited data

Results flagged for a closer look

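In 35 of 338 groups of 8 libraries tested (10.4%), 1 library lay far from the other 7, its gap to the nearest being above Dixon's critical share of the whole range (95%). Chance alone gives about 1 in 20. All values are normalised read counts, and no explanation was tested.

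Among the controls, the highest library stood apart for DBH in replicate 5 (26.7), GATA2 in replicate 4 (17.2), GDF1 in replicate 8 (393), GDF15 in replicate 5 (603), GINS1 in replicate 6 (534), KLHL24 in replicate 1 (2058), MDM2 in replicate 4 (2854), NUPR1 in replicate 3 (47.8), SLC4A11 in replicate 7 (717) and SLC6A2 in replicate 7 (31.1). The lowest control stood apart for CEBPG in replicate 7 (1748), PMAIP1 in replicate 7 (180) and SLC7A11 in replicate 7 (440).

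Among the chlorpyrifos IC20/100 libraries, the highest stood apart for AHR in replicate 7 (159), AKNA in replicate 1 (1359), CHRM4 in replicate 6 (9.40), CRABP2 in replicate 5 (321), CYP1B1 in replicate 8 (27.9), DBH in replicate 2 (48.9), DCX in replicate 4 (29364), DUSP6 in replicate 7 (387) and EIF4EBP1 in replicate 5 (559). It also did for ETV5 in replicate 5 (157), FOSL2 in replicate 2 (201), GDF15 in replicate 7 (281), MDM2 in replicate 2 (2404), PAX6 in replicate 7 (826), PLK1 in replicate 5 (1084), SLC3A2 in replicate 6 (4001) and SPRY4 in replicate 5 (201). The lowest stood apart for CPT1A in replicate 7 (125), FHIT in replicate 6 (96), GDF1 in replicate 1 (172), PRPH in replicate 4 (16.0) and SALL4 in replicate 6 (935).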

How the results depend on the processing

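The 2836 calls against control stayed within 1.5 times under every alternative that kept the control group, from 2300 without the low-value filter to 3046 with a replicate block beside run, and from 2414 to 3537 when 1 library was left out. With acrylamide IC20/100 in place of control the count was 2374 and with valproic acid IC20/100 807, both added after the data were seen. The list counts ranged from 17 to 17 for the stress response core, from 16 to 18 for p53 targets and from 16 to 22 for DNA replication. Of 39 list counts of 3 or more genes 14 moved by over 1.5 times under at least 1 alternative, and of 34 counts of 1 or 2 genes 28 did. Of 138 named genes called against control, 25 lost the call under at least 1 alternative, and no called gene changed direction. Those whose loss is given nowhere else were PTN without the run term (adjusted p = 0.0539, limma) and, with the 16 libraries alone, HPDL (0.0623), PYCR3 (0.0517) and SBK1 (0.0592). The mitochondrial share difference ranged from 0.194 to 0.231 percentage points when 1 library was left out.

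The small counts moved most. Against fluoxetine IC20/100 (5 genes), 3 were called with a pseudocount of 0.5, 8 with 8, 1 without the low-value filter, 9 with the stricter filter of 50, 13 with TMM scaling, 19 with edgeR, 59 with DESeq2, 1 with the 16 libraries alone and 0 without the run term. Against methyl mercury IC20/100 (1 gene) the counts were 4 with the stricter filter, 2 with TMM scaling, 14 with edgeR, 71 with DESeq2 and 0 with the 16 libraries alone. Against chlorpyrifos IC5 (10 genes) they were 16 with edgeR, 79 with DESeq2, 2 with the 16 libraries alone and 5 without the run term. Leaving out 1 library gave 0 to 43, 0 to 5 and 7 to 27. The cause was not tested. Depth limits the low genes, such as CHRM4, CHAT and MT1X.

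Replicate numbers tied the libraries only weakly. The 8 same-numbered pairs of control and exposed libraries deviated together little (correlation 0.00548 to 0.0519, median 0.0197), beside a median of 0.0045 for other numbers. None of these pairs shared a run, and 0 of 8 controls correlated best with its own number. In both groups replicates 7 and 8 had the highest share of reads in their 20 most abundant genes. It was 8.02% and 7.97% in controls, and 8.10% for each in exposed libraries. A replicate block in place of run, in the 16 libraries alone, gave 2419 calls against control, 0 against fluoxetine, 0 against methyl mercury and 1 against chlorpyrifos IC5. Beside run in all 88 libraries the block gave 3046, 19, 4 and 13, against 2836, 5, 1 and 10 without it.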

Other observations

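Some gene groups were not described above. Of 17 tested immediate early and activity-regulated genes 5 fell (29.4%, beside 7.02% of all genes tested) and 12 did not pass. NR4A1, a nuclear receptor induced by activity, ran from 268 to 444 in controls and from 220 to 306 in exposed libraries (-0.54 ± 0.13, adjusted p = 0.00104, limma). FOSL2, an AP-1 factor, fell from a median of 146 to 41.7 with wide overlap (-1.58 ± 0.44), a call lost with a replicate block in place of run (adjusted p = 0.07, limma). With the stricter filter of 50, 3 of these genes fell. Of 21 genes of GABA and glycine transmission 2 fell and 2 rose (9.52% each way), near the 7.02% and 7.06% of all genes tested. GAD1, which makes GABA, fell from a median of 648 to 485, while LHX1, a factor of inhibitory interneurons, rose from 1090 to 1356. GATA2, a factor of midbrain inhibitory neurons, rose from a median of 6.67 to 26.8, with overlap.

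Among 28 lysosomal genes 4 rose (14.3%) and 3 fell (10.7%), beside 7.06% and 7.02% of all genes tested. CTSA, a lysosomal protease, rose from a median of 337 to 521 (0.58 ± 0.10) and MCOLN1, a lysosomal calcium channel, from 144 to 194, both with overlap. The call of MCOLN1 was lost with the 16 libraries alone (adjusted p = 0.0737, limma), and of the falls 1 was left without exposed replicate 3 or control replicate 1 or 8, and 0 without the run term. SELENOP, a secreted selenium carrier, was the 1 of 16 tested selenoproteins that rose (6.25%), from a median of 41.2 to 80.5 (0.91 ± 0.19, adjusted p = 0.000209, limma). Of 11 markers of neural crest and peripheral neurons 4 fell (36.4%) and 1 rose (9.09%). With the 16 libraries alone 2 fell, and with a replicate block in place of run 1 did. PRPH, the peripheral neuron filament peripherin, ran from 55.0 to 96.2 in controls and from 16.0 to 50.8 in exposed libraries without overlap.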
